A study of Homo sapiens with 30 samples.

Results

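The genes described here encode 10 subunits of the histone H3 lysine 4 (H3K4) methyltransferase complexes: KMT2A, KMT2B, WDR5, RBBP5, ASH2L, DPY30, MEN1, CXXC1, SETD1A and SETD1B. They were chosen by name, not by a measured value, and make up 10 of the 20090 protein-coding genes whose start sites were searched. The data are ChIP-seq peak lists from MDA-MB-231, a human triple-negative breast cancer cell line. The parental line was profiled for SAP30, SIN3A and SIN3B, and both the parental line and SAP30-KO1 for RNA polymerase II (Pol II), trimethylated H3K4 (H3K4me3) and acetylated H3K9 (H3K9Ac), with 2 libraries in each of the 9 groups. SAP30-KO1 was made with Cas9 and 1 guide RNA against SAP30, and per the study's methods it was a mixture of expanded single-cell clones and not 1 clone. The parental libraries carry no edit in their labels, so the edit and the passage through single cells cannot be told apart.

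KMT2A (MLL1) and KMT2B (MLL2) are catalytic subunits that place methyl groups on H3K4 and are held at many promoters by menin, the product of MEN1. SETD1A and SETD1B are the catalytic subunits of the related SET1 complexes, which CXXC1 brings to unmethylated CpG-rich DNA. WDR5, RBBP5, ASH2L and DPY30 form a core shared by these complexes that stimulates methyl transfer. SAP30 is a subunit of the SIN3 histone deacetylase complex, whose scaffolds are SIN3A and SIN3B, and H3K4me3 and H3K9Ac mark the promoters of active genes.

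Each list held from 10861 to 54622 summits, the single bases at which a called peak was highest, with the −log10 of the q-value as score. The score was used to rank summits inside their own list, so that 0% is the highest score and 100% the lowest, and a promoter summit is one within 1000 bp of an annotated start site. A gene without a promoter summit had no called summit within that distance, which does not show that the protein or mark was absent. The lists give summits and not the extent of peaks. A called peak with its summit farther away could therefore still cover the start. Of 6 mesenchymal and basal marker genes, 6 had a promoter summit of Pol II in both parental libraries, against 1 of 6 luminal and epithelial markers, EPCAM. H3K4me3 did not separate them, with a summit in both libraries at 6 of the former and 5 of the latter (ESR1, PGR, CDH1, FOXA1 and EPCAM, not GATA3). The promoter of SAP30 kept its summits in SAP30-KO1 (Pol II rank 10.2% and 5.4% in the parental libraries and 3.75% and 23.9% in SAP30-KO1), which checks nothing about the edit itself. The 2 libraries of a group are labelled as replicates without naming separate cultures, so a p-value measures the spread between these libraries only. A lower rank in ChIP of a cell population cannot tell fewer cells with a bound site from less protein or mark per cell.

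The places where SAP30 and SIN3B peaked at these promoters are shown by their sequence. The sequences that follow are the 181 bases centred on the mean summit of the 2 libraries, in the GRCh37 assembly (hg19) and 5′ to 3′ on the strand of the gene, for the 2 members highest in the SAP30 lists, for the member whose SAP30 summit lay farthest upstream and for the member highest in the SIN3B lists. Capitals mark matches on either strand to the GC box GGGCGG, the ETS core CCGGAA and the E-box CACGTG. The core TGCGCA of the NRF1 site, the core AAGATGG of the YY1 site and the CCAAT box were also searched on both strands and had no match in them.
KMT2A, SAP30, chr11:118306988-118307168, + strand, centred 129 bp before the start: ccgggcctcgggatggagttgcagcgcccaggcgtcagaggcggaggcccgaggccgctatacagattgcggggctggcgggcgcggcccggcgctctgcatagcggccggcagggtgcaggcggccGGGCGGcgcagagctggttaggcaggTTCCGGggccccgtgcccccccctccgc
WDR5, SAP30, chr9:137001395-137001575, + strand, in intron 1: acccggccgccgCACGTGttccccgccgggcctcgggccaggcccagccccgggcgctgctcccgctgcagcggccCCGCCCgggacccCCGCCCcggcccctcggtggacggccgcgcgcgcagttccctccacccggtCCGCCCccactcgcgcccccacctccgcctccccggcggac
KMT2B, SAP30, chr19:36208000-36208180, + strand, centred 815 bp before the start: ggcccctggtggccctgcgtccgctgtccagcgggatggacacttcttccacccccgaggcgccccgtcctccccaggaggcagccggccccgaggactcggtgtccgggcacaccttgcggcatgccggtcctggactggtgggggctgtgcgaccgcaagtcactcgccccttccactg
RBBP5, SIN3B, chr1:205091270-205091450, − strand, centred 254 bp before the start: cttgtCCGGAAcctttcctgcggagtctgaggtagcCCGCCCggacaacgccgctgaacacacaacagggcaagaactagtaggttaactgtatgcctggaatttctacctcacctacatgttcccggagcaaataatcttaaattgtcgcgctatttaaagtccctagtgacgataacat

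These windows held 22 CpG dinucleotides at KMT2A, 28 at WDR5, 15 at KMT2B and 10 at RBBP5. Over the best promoter summits of all 12605 protein-coding genes in the first SAP30 library, windows of the same length held a median of 19 CpG, with quartiles at 14 and 23. WDR5 was therefore above the upper quartile and KMT2A between the quartiles. The SIN3B window of RBBP5 was below the lower quartile of these SAP30 windows, and no background of SIN3B windows was made. In the first SAP30 library the 9 members with a window ranged from 10 CpG at RBBP5 to 29 at SETD1A. A GC box was found in 4 of these 9 member windows and in 54.4% of all windows. The ETS core was in 1 of 9 (KMT2A) and in 16.7% of all, and the E-box in 1 of 9 (WDR5) and in 8.57% of all. The NRF1 core was in 1 of 9 (DPY30) against 4.69% of all windows, CCAAT in 1 of 9 (MEN1) against 10.3%, and the YY1 core in 0 of 9 against 3.17%. No motif match overlapped another in the printed windows. A match describes letters, not a bound factor.

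To ask which of these genes carry the SIN3 complex at their promoters, the best promoter summit of each member was ranked in every list. In SAP30 ChIP, 9 of the 10 members had a promoter summit in both libraries, and 61.2% of all protein-coding genes did. KMT2A stood first among them. Its SAP30 summit ranked at 0.344% and 0.731% of the 2 lists, and only 1.17% and 2.4% of the promoter summits of protein-coding genes ranked above it. WDR5 came next, at 12.5% and 9.37%. The KMT2A and WDR5 libraries did not overlap with each other or with the gene that followed. From there the order ran MEN1 (23.8% and 12.9%), DPY30 (16.8% and 20.6%), KMT2B (19.6% and 18.3%), ASH2L (17.9% and 31.3%), RBBP5 (26.4% and 25.1%), SETD1A (32.6% and 26.2%) and CXXC1 (35.3% and 30.2%), and neighbours in it overlapped between libraries. Only 2 of the 9 members were above the median gene with a SAP30 promoter summit, at 17.1% of the list, and the median of the members was 19%. The 10th member, SETD1B, had a SAP30 promoter summit in the second library alone, at 14.5%.

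**Figure D1:**
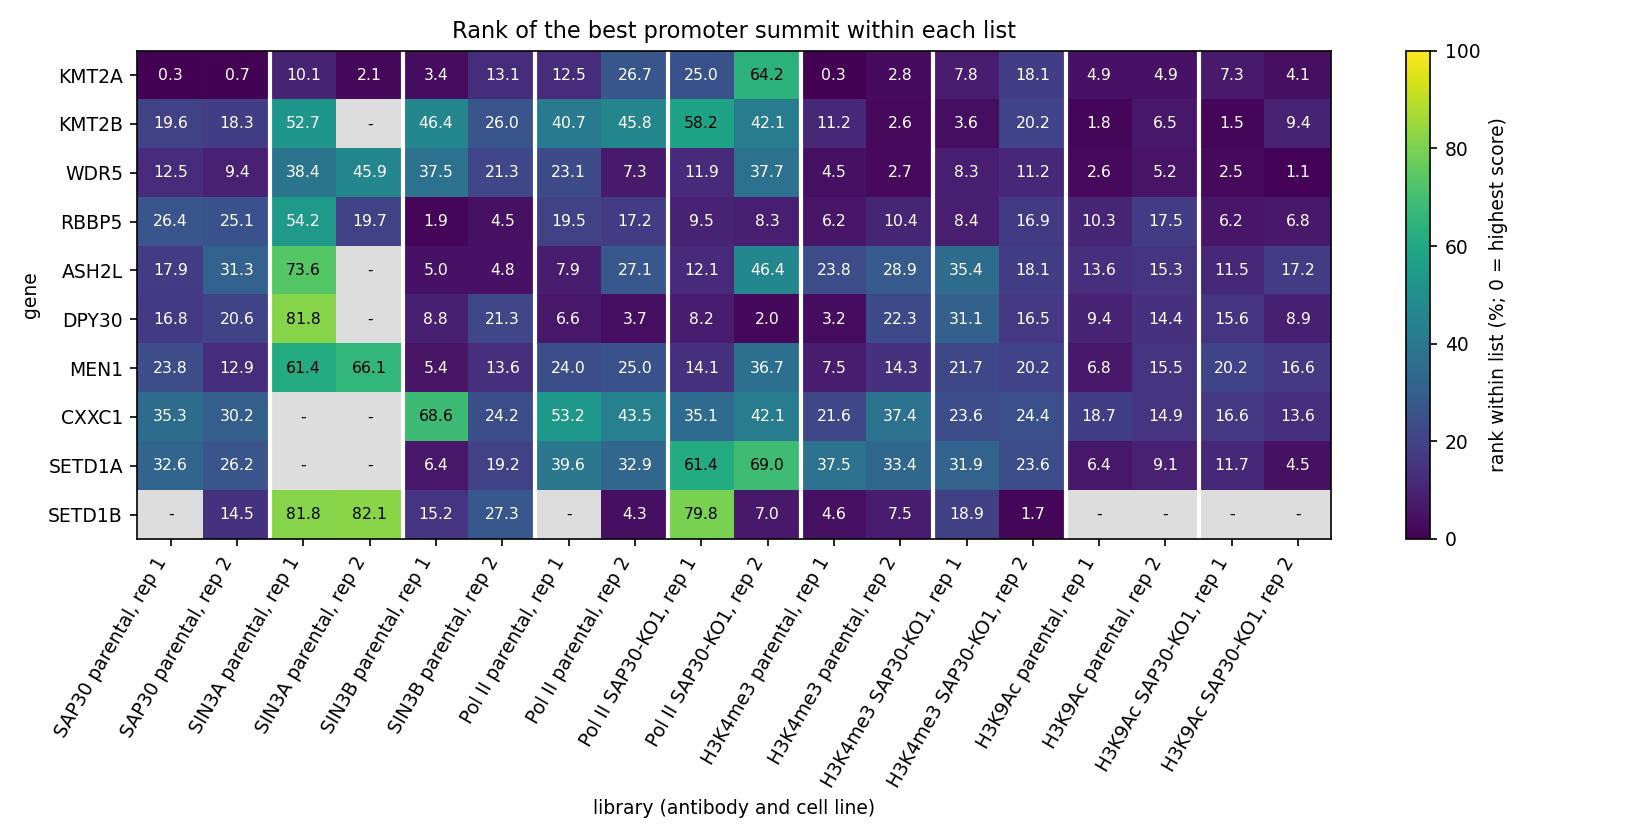
Rank of the best promoter summit of each member gene (rows) in each of the 18 lists (columns), in percent of the list, where 0 is the highest score and grey cells with a dash had no promoter summit. KMT2A is the darkest row in SAP30 (0.3 and 0.7), SIN3A has 7 empty cells, and SETD1B has no H3K9Ac promoter summit in any of the 4 lists.

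SIN3A, with the shortest lists of the series, was found at fewer members. It had a promoter summit in both libraries at 5 of 10 members, KMT2A, RBBP5, WDR5, MEN1 and SETD1B, and at 31.5% of all protein-coding genes. KMT2A was again first, at 10.1% and 2.09%, below the range of every other member. RBBP5 ranked at 54.2% and 19.7% and WDR5 at 38.4% and 45.9%, and these overlapped. MEN1 at 61.4% and 66.1% and SETD1B at 81.8% and 82.1% were lower in the list and did not overlap with their neighbours. KMT2B (52.7%), ASH2L (73.6%) and DPY30 (81.8%) had a SIN3A promoter summit in the first library only. CXXC1 and SETD1A had none in either.

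SIN3B was found at the promoters of all 10 members in both libraries, against 51.7% of protein-coding genes. Its order was another one. RBBP5, the WD40 subunit that contacts ASH2L, stood first by mean rank, at 1.93% and 4.47%, and ASH2L followed at 4.96% and 4.8%. The libraries of these 2 genes did not overlap with each other, but those of KMT2A overlapped with both. KMT2A ranked at 3.38% and 13.1% and MEN1 at 5.44% and 13.6%, and SETD1A, which had no SIN3A promoter summit, at 6.36% and 19.2%. DPY30 (8.77% and 21.3%), SETD1B (15.2% and 27.3%), WDR5 (37.5% and 21.3%), KMT2B (46.4% and 26%) and CXXC1 (68.6% and 24.2%) followed, each overlapping with its neighbour. The 2 SETD1B values came from different places, 935 bp before and 1475 bp after the canonical start. Its SIN3B summits nearest to the start, 49 and 201 bp before it, ranked at 33.4% and 80.3%. Of the 10 members, 7 ranked above the median gene with a SIN3B promoter summit, at 21.6%. Of the 9 members with SAP30 in both libraries, 9 also had SIN3B and 4 had SIN3A (KMT2A, WDR5, RBBP5 and MEN1). Among the 12294 protein-coding genes with SAP30 in both libraries these shares were 82.8% and 50.5%.

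The summits of the 3 proteins did not lie at the same base. At KMT2A, on the plus strand of chromosome 11 (118307171 to 118397547), SAP30 peaked 131 and 127 bp before the canonical start and SIN3A 153 and 123 bp before it. SIN3B peaked 126 and 173 bp before it. All 6 summits lay between 123 and 173 bp before the start, and H3K4me3 peaked on the other side of the start, 384 and 412 bp into exon 1. At KMT2B, on the plus strand of chromosome 19 (36208875 to 36229781), SAP30 peaked 815 and 814 bp before the start in the 2 libraries. Its Pol II summits were 55 and 59 bp into the gene and its H3K4me3 summits 328 and 333 bp into it, in the coding part of exon 1. At RBBP5, on the minus strand of chromosome 1 (205055270 to 205091143), SAP30 peaked 134 and 95 bp after the start, whereas SIN3B peaked 291 and 217 bp before it. At ASH2L, on the plus strand of chromosome 8 (37963011 to 38001594), the sides were exchanged. SAP30 peaked 171 and 161 bp before the start and SIN3B 88 and 130 bp after it. At MEN1, on the minus strand of chromosome 11 (64570982 to 64578766), SAP30 (90 and 20 bp), SIN3B (64 and 30 bp) and Pol II (28 and 64 bp) all peaked just after the start.

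**Figure D2:**
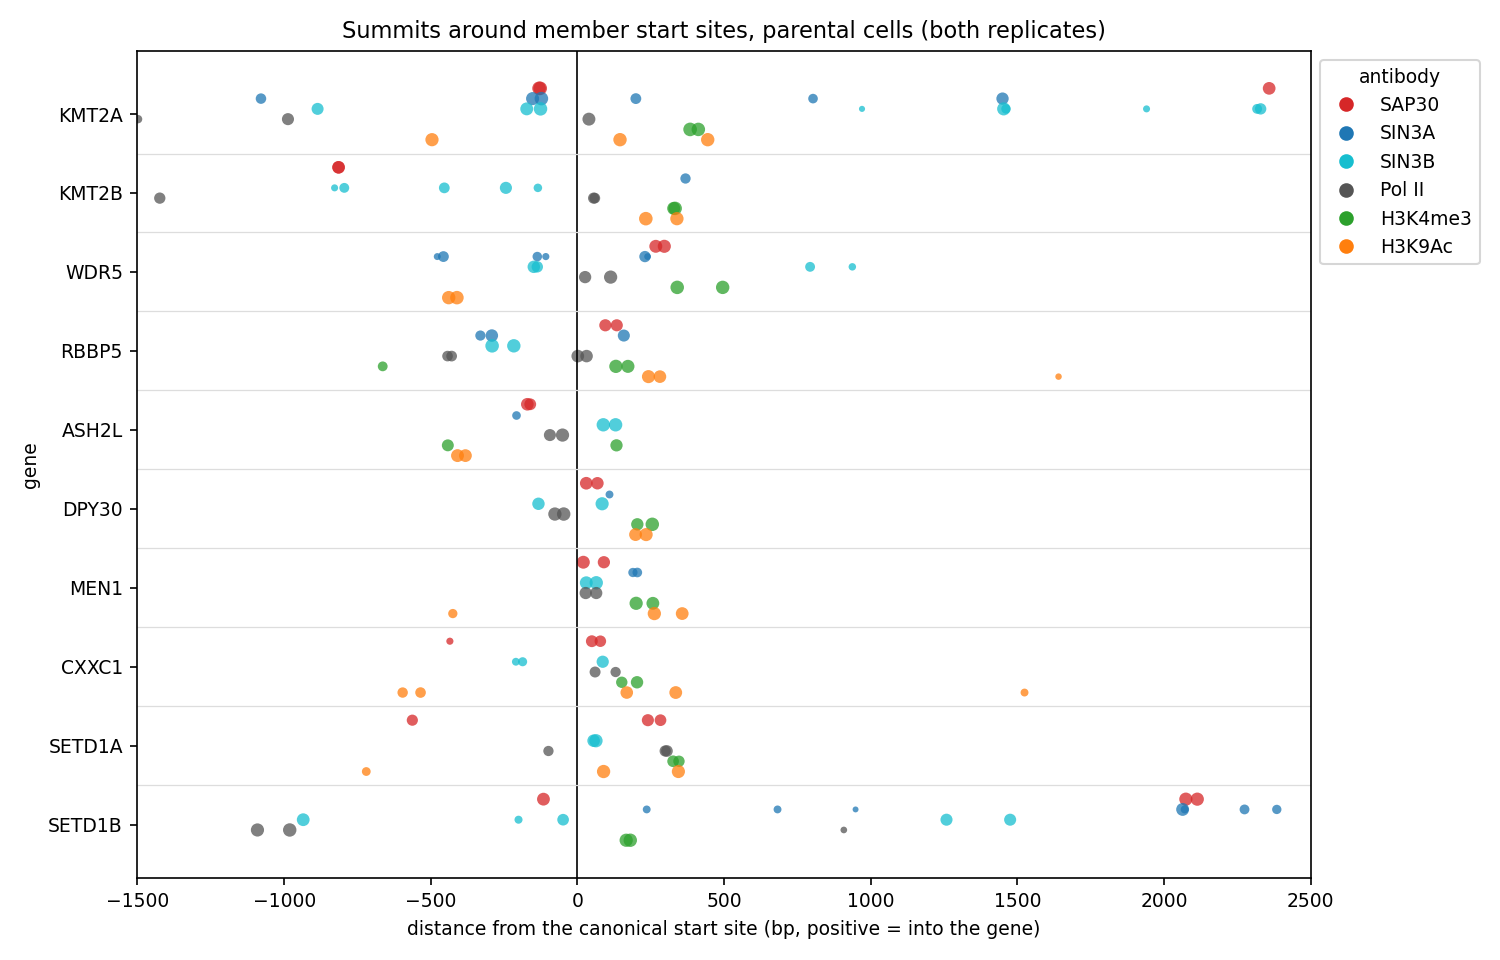
Summits around the canonical start of each member (rows) in the parental libraries of both replicates, by distance in bp (positive into the gene), coloured by antibody, with larger points for better ranks. The best SAP30 summits sit to the left of the start at KMT2A, KMT2B and ASH2L and to its right at WDR5, RBBP5, DPY30, MEN1, CXXC1 and SETD1A, while H3K4me3 lies to its right in 19 of 20 best summits.

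At WDR5 (plus strand of chromosome 9, 137000487 to 137025090) SAP30 peaked 267 and 296 bp after the start, in intron 1, and SIN3B 137 and 149 bp before it. At SETD1A (plus strand of chromosome 16, 30968615 to 30995985) SAP30 peaked 283 and 240 bp after the start, also in intron 1, and SIN3B at 63 and 55 bp in the 5′ UTR of exon 1. DPY30 (minus strand of chromosome 2, 32092878 to 32264874) and CXXC1 (minus strand of chromosome 18, 47808713 to 47814209) had SAP30 summits at 30 and 68 bp and at 78 and 49 bp, in the 5′ UTR. Across the members, 9 of 9 pairs of SAP30 summits lay within 100 bp of each other in the 2 libraries, with a median gap of 29 bp. The median SAP30 summit of members was 49 bp after the start, against 78 bp for all protein-coding genes. Genes transcribed from the other strand start close by at 4 members: WDR5-DT 310 bp from the start of WDR5, LINC01089 103 bp from that of SETD1B, and the unnamed long noncoding genes ENSG00000275263 at 95 bp from SETD1A and ENSG00000288937 at 34 bp from DPY30. Summits there cannot be assigned to 1 of the pair.

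Active marks were strong at most members in parental cells. H3K4me3 had a promoter summit in both libraries at 10 of 10 members (63.8% of all protein-coding genes), with a median rank of 9.6% against 23.7% for all genes with one. KMT2A (0.32% and 2.77%) and WDR5 (4.45% and 2.73%) were first and overlapped. SETD1B (4.58% and 7.54%), KMT2B (11.2% and 2.58%), RBBP5 (6.23% and 10.4%), MEN1 (7.5% and 14.3%) and DPY30 (3.16% and 22.3%) followed and overlapped in turn. ASH2L, CXXC1 and SETD1A came last by mean rank, at 23.8% and 28.9%, 21.6% and 37.4%, and 37.5% and 33.4%, though CXXC1 overlapped with DPY30. H3K9Ac had a promoter summit in both parental libraries at 9 of 10 members (61.4% of genes), with mean ranks from 3.89% at WDR5 to 16.8% at CXXC1 and a median of 11.2% against 12.2% for all genes. SETD1A, last for H3K4me3, was at 6.37% and 9.13% for H3K9Ac, behind WDR5, KMT2B and KMT2A.

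Pol II in parental cells had a promoter summit in both libraries at 9 members (57.7% of genes), and DPY30 was the highest, at 6.56% and 3.66%. WDR5 (23.1% and 7.32%), ASH2L (7.88% and 27.1%), RBBP5 (19.5% and 17.2%), KMT2A (12.5% and 26.7%) and MEN1 (24% and 25%) overlapped in turn. SETD1A (39.6% and 32.9%), KMT2B (40.7% and 45.8%) and CXXC1 (53.2% and 43.5%) were below them. The median of members was 19.6% against 25.5% for all genes with a Pol II promoter summit.

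SETD1B differed from the other members. Its gene lies on the plus strand of chromosome 12 (122241915 to 122270562), and its 3 annotated starts span 729 bp. H3K4me3 peaked 180 and 166 bp after the canonical start in the parental libraries and 165 and 193 bp after it in SAP30-KO1, so the start itself carried the mark in 4 of 4 lists. H3K9Ac had no summit in the promoter window in any of the 4, and summits do not show whether a called peak covered the start. Its nearest summits there were 3090 bp before and 2841 bp after the start in parental cells, and 2534 bp after and 2729 bp before it in SAP30-KO1, the last at 0.0177% of its list and close to the start of ENSG00000274292, another gene. The best SAP30 summits in the gene were not at its start either. They lay 2113 and 2074 bp into the gene, in intron 4 and in the coding part of exon 4, and ranked at 7.91% and 8.12%. SIN3A peaked at 2063 and 2070 bp, at 13.5% and 80.9%, so the same place was found in all 4 lists of both proteins. A further group of summits lay 7220 to 8531 bp into the gene, in intron 6, and came from 15 of the 18 lists, at ranks of 20.1% to 98.5%. H3K4me3 was there at 48.5% and 52% in parental cells and at 48.9% and 45.5% in SAP30-KO1.

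**Figure D3:**
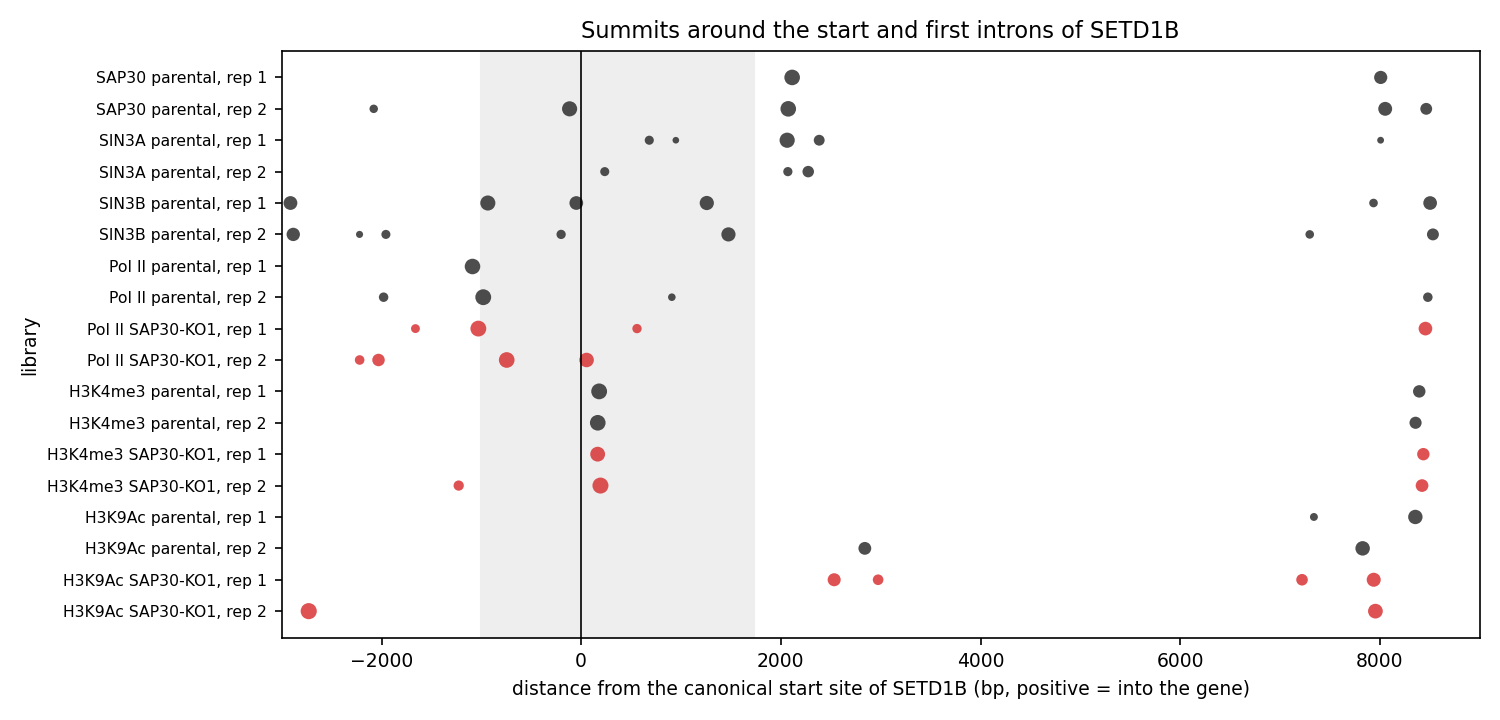
Summits around the canonical start of SETD1B and in the first part of the gene in each of the 18 lists, by distance in bp, black for parental and red for SAP30-KO1, with larger points for better ranks and the promoter window in grey. H3K4me3 sits just after the start in 4 of 4 lists, H3K9Ac has no summit in the grey window, and SAP30 and SIN3A share a place 2063 to 2113 bp into the gene.

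Pol II near SETD1B peaked about as far upstream as the window reaches, on the side of LINC01089. The first parental library had its summit 1091 bp before the start at 8.47%, outside the window, and the second 981 bp before it at 4.26%, inside. In SAP30-KO1 the summits were 1030 bp (4.43%, outside) and 746 bp (6.99%, inside) before the start. The value of 79.8% for the first SAP30-KO1 library is that of a summit 559 bp into the gene, the best one inside the window. SETD1B, with no Pol II promoter summit in 1 parental library, was not among the 9 members tested for Pol II.

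Away from the starts, 82 summits lay in the bodies of the 10 genes over the 18 lists, and 0 in those of KMT2B, WDR5 and SETD1A. KMT2A had 9 in intron 1 between 1399 and 2450 bp and 1 in intron 20. SIN3B was found at 1453 and 1461 bp in the 2 libraries, at 9.16% and 63.7%, and SIN3A at 1449 bp in 1, at 22.7%. SIN3B was also found at 2317 and 2329 bp (58.7% and 37.8%) and SAP30 at 2358 bp in 1 library (16.5%). ASH2L had H3K9Ac summits in intron 3 in both SAP30-KO1 libraries, at 1766 and 1663 bp, and in 0 of 2 parental libraries, but they ranked at 73.9% and 78.6%. At DPY30, 27 summits from 18 of 18 lists lay 28634 to 30104 bp into the annotated gene. They are past the end of the canonical transcript, beside the start of MEMO1, and cannot be counted as DPY30's own. Leaving out the summits near starts of other genes took the total from 82 to 51.

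To ask what differed in SAP30-KO1, the rank of each promoter summit was compared between parental and SAP30-KO1 cells. A promoter was counted as lost where both parental libraries and neither SAP30-KO1 library had a summit, and as gained in the reverse case. Of the members with a summit in both parental libraries (9 for Pol II, 10 for H3K4me3, 9 for H3K9Ac), 0 lost it, and 0 members gained one. Among all protein-coding genes the share lost was 2.33% (Pol II), 1.44% (H3K4me3) and 0.689% (H3K9Ac), and the share gained 0.249%, 0.166% and 0.538% of the genes with a summit in both SAP30-KO1 libraries. With 2 libraries against 2, an exact permutation test cannot give a p below 0.33, so a model fitted across all genes was used (limma's moderated test on normal scores of the ranks, with Benjamini-Hochberg adjustment). No member passed an adjusted p of 0.05 for any of the 3 marks. Over all genes limma called 0 of 10703 for Pol II (0.0%), 0 of 12527 for H3K4me3 (0.0%) and 1 of 12044 for H3K9Ac (0.0083%). At an unadjusted p under 0.05 there were 929, 1010 and 1026 genes (8.68%, 8.06% and 8.52%), with 1 member in each: SETD1A for Pol II, KMT2A for H3K4me3 and RBBP5 for H3K9Ac. By direction, the shares of all genes that ranked lower in SAP30-KO1 at that level were 4.33% (Pol II), 3.94% (H3K4me3) and 4.37% (H3K9Ac), and those that ranked higher 4.35%, 4.12% and 4.15%. SETD1A and KMT2A were among the former and RBBP5 among the latter.

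SETD1A ranked lower in SAP30-KO1 for Pol II. It was at 39.6% and 32.9% in parental cells and at 61.4% and 69% in SAP30-KO1, and the groups did not overlap. The mean moved 29 points down the list (from 36.2% ± 4.8 to 65.2% ± 5.37, SD, n = 2), a change greater than that of 97.6% of the genes tested. On the scale of normal scores the difference was −0.88 with a standard error of 0.37 (limma, adjusted p = 0.548). The Pol II summits lay 299 and 305 bp after the start in parental cells, and 141 bp before and 285 bp after it in SAP30-KO1. ENSG00000275263 starts 95 bp from SETD1A on the other strand, so these summits cannot be assigned to 1 of the pair. Both SAP30-KO1 libraries ranked below both parental libraries at 24.2% of all genes, and SETD1A was the 1 member of 9 among them. H3K4me3 at SETD1A went the other way, from 37.5% and 33.4% to 31.9% and 23.6% (adjusted p = 0.707, limma), without overlap. That change of −7.72 points was −3.53 points without the second SAP30-KO1 library and −11.9 points without the first. Both SAP30-KO1 libraries were above both parental ones at 11.5% of all genes for this mark, and SETD1A was 1 of 10 members there. H3K9Ac at SETD1A was 6.37% and 9.13% in parental cells and 11.7% and 4.49% in SAP30-KO1, which overlapped.

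**Figure D4:**
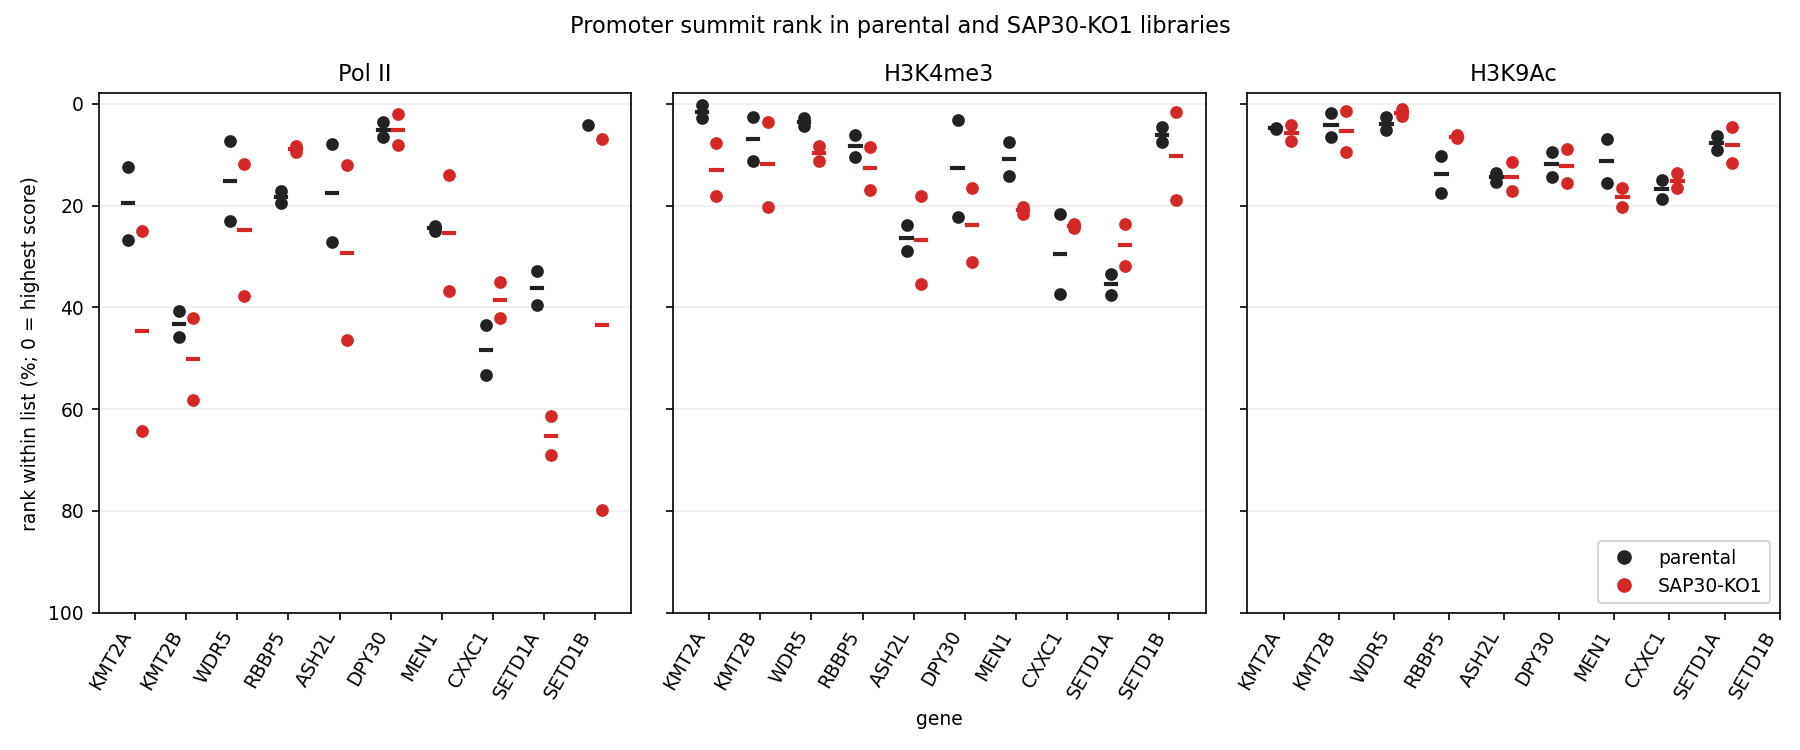
Rank of the best promoter summit (vertical axis, percent of the list, highest score at the top) of each member in the 2 parental (black) and 2 SAP30-KO1 (red) libraries for Pol II, H3K4me3 and H3K9Ac, with a bar at the mean where both libraries had a summit. Among the genes whose black and red points are apart are SETD1A in Pol II, KMT2A, WDR5 and MEN1 in H3K4me3, and RBBP5 in Pol II and H3K9Ac.

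KMT2A ranked lower in SAP30-KO1 for 2 of the 3 marks. For H3K4me3 it was at 0.32% and 2.77% in parental cells and at 7.79% and 18.1% in SAP30-KO1, without overlap, and its mean moved 11.4 points (normal-score difference −1.35, standard error 0.44, limma adjusted p = 0.598). For Pol II it was at 12.5% and 26.7% in parental cells and at 25% and 64.2% in SAP30-KO1, and the groups overlapped (mean change 25 points, normal-score difference −0.91, standard error 0.49, adjusted p = 0.636 by limma). Without the second SAP30-KO1 library the Pol II change was 5.41 points and the H3K4me3 change 6.25 points, and without the first they were 44.6 and 16.5 points. The best Pol II summits lay at different places. In parental cells they were 39 bp after and 987 bp before the start, and in SAP30-KO1 854 and 190 bp before it. With the summit nearest to the start the Pol II change was 30.2 points. A further Pol II summit of the second SAP30-KO1 library, 1164 bp before the start, lay within 1000 bp of the start of ENSG00000255384, another gene. That gene starts upstream of KMT2A, on the side of the best summits 987 and 854 bp before the start. These summits may therefore not belong to KMT2A alone. H3K9Ac was nearly level, at 4.86% and 4.88% and then at 7.26% and 4.09% (change 0.802 points, adjusted p = 0.986 by limma).

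KMT2A and MEN1 both lie on 11q, where genes ranked lower in SAP30-KO1 as a whole. The median change of genes on 11q was 9.94 points for Pol II (402 genes), 8.5 for H3K4me3 (487 genes) and 5.09 for H3K9Ac (470 genes), against 1.22, 1.9 and 0.16 points on the other arms. The H3K4me3 change of KMT2A stood 2.88 points beyond the median of its arm, and its Pol II change 15.1 points beyond it. MEN1 moved from 7.5% and 14.3% to 21.7% and 20.2% for H3K4me3, without overlap, a change of 10 points, 1.53 beyond the arm (adjusted p = 0.668, limma). For H3K9Ac it moved from 6.85% and 15.5% to 20.2% and 16.6%, also without overlap, by 7.23 points, 2.15 beyond the arm (adjusted p = 0.65, limma), and by 2.93 points without the first parental library. For Pol II it was at 24% and 25% and then at 14.1% and 36.7%, on both sides of its parental rank. With the median rank of the arm subtracted from the ranks in each library, the H3K4me3 change was 1.08 points for KMT2A and −0.273 points for MEN1. The Pol II change of KMT2A was then 14.5 points and the H3K9Ac change of MEN1 1.13 points.

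**Figure D5:**
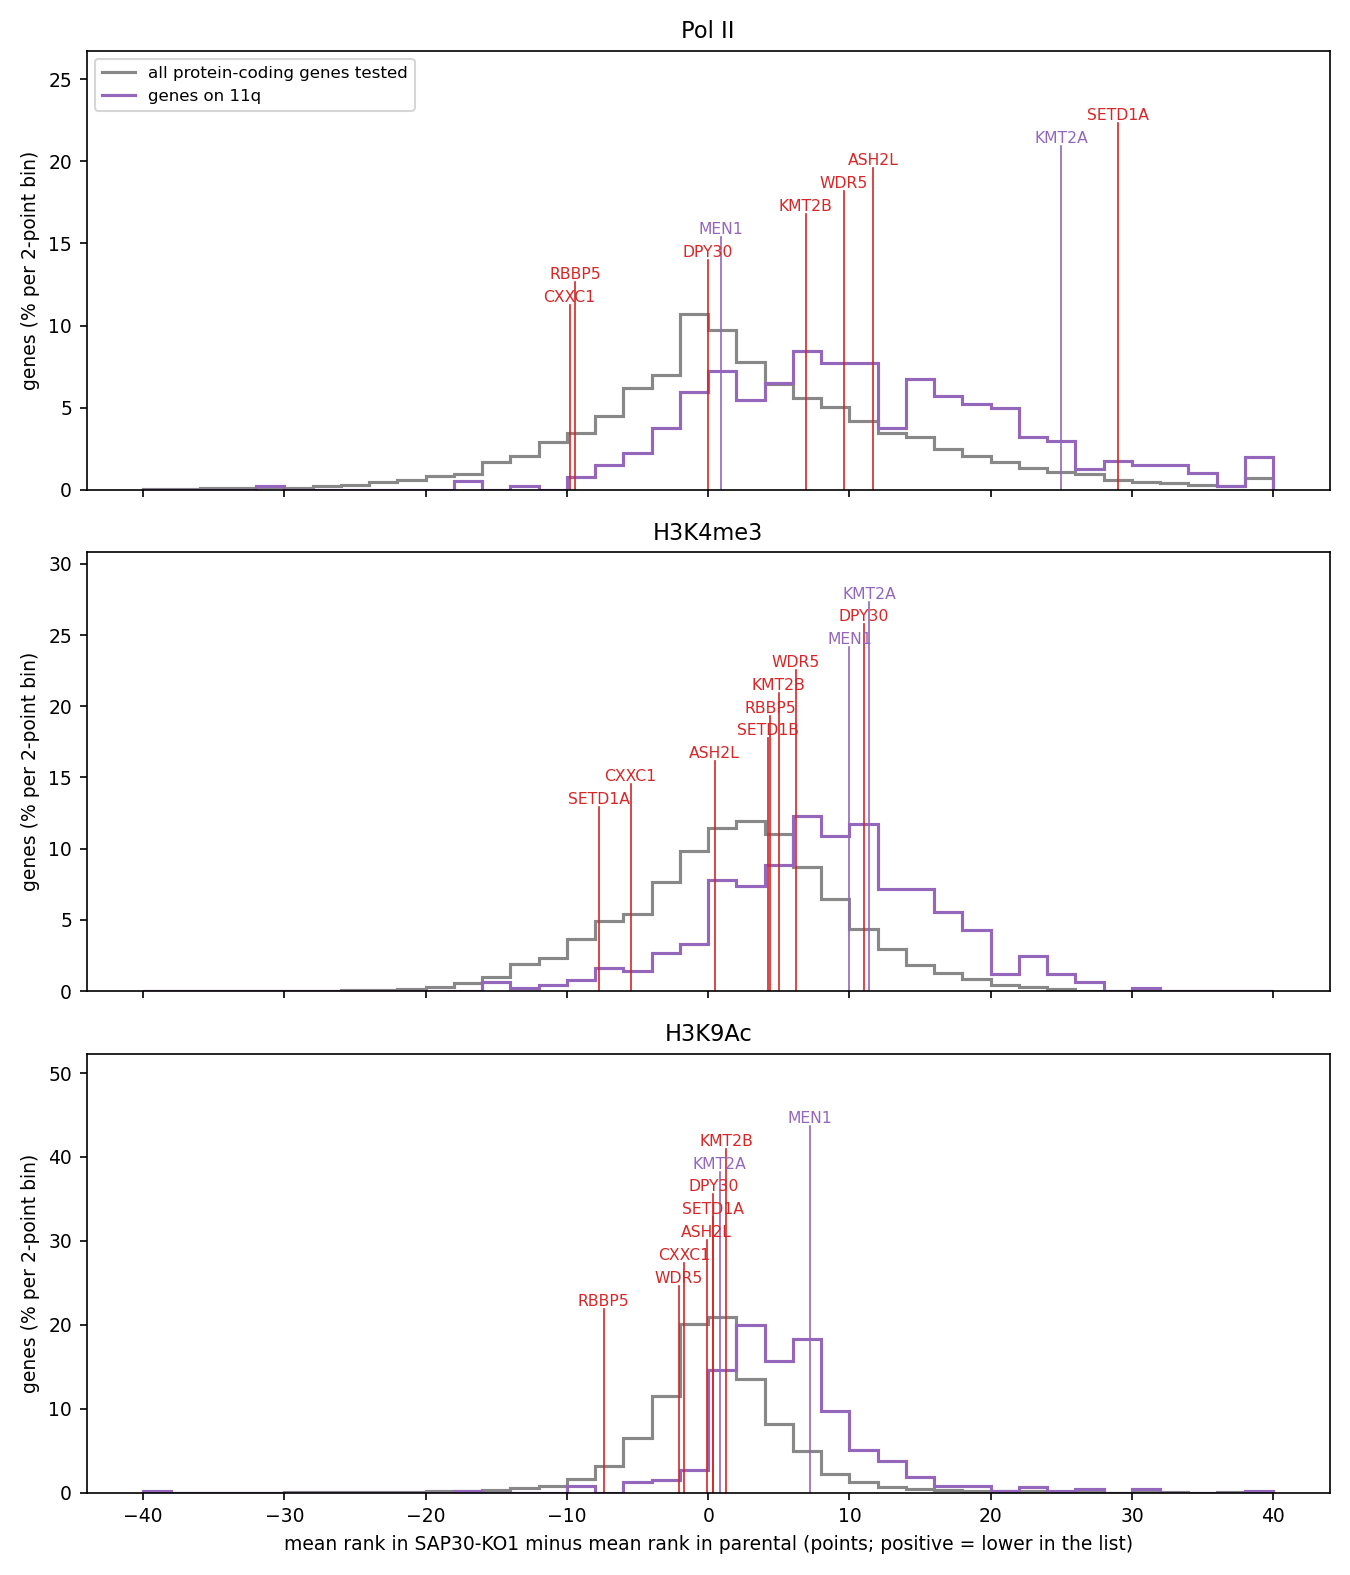
Distribution of the change in mean promoter rank, SAP30-KO1 minus parental in points (positive is lower in the list), over all protein-coding genes tested (grey) and over genes on 11q (purple), in percent of genes per bin of 2 points, with changes beyond 40 points in the end bins and each member as a labelled line. SETD1A (29 points) and KMT2A (25 points) lie far to the right for Pol II, and for H3K4me3 the lines of KMT2A and MEN1 fall within the bulk of the 11q genes.

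WDR5 was the remaining member whose H3K4me3 ranks did not overlap, from 4.45% and 2.73% to 8.29% and 11.2% (change 6.18 points, adjusted p = 0.657 by limma). The arm that holds WDR5, 9q, had a median change of 0.473 points. KMT2A, WDR5 and MEN1 thus made 3 of 10 members with both SAP30-KO1 libraries below both parental ones in H3K4me3, and 28.1% of all genes were in that position. H3K9Ac at WDR5 ran the other way, from 2.6% and 5.19% to 2.5% and 1.11%.

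RBBP5 ranked higher in SAP30-KO1 for Pol II and H3K9Ac. Pol II moved from 19.5% and 17.2% to 9.54% and 8.29%, a change of −9.42 points (adjusted p = 0.687, limma), and H3K9Ac from 10.3% and 17.5% to 6.2% and 6.78%, a change of −7.41 points (normal-score difference 0.78, standard error 0.32, limma adjusted p = 0.53). Neither overlapped. Without the second parental library the H3K9Ac change was −3.85 points. H3K4me3 at RBBP5 was 6.23% and 10.4% in parental cells and 8.45% and 16.9% in SAP30-KO1. CXXC1 also ranked higher for Pol II, at 53.2% and 43.5% and then at 35.1% and 42.1% (adjusted p = 0.651, limma). RBBP5 and CXXC1 were 2 of 9 members with both SAP30-KO1 libraries above both parental ones in Pol II, and 15.4% of all genes were. In H3K9Ac these were WDR5 and RBBP5, 2 of 9 against 16.4% of genes, with MEN1 as 1 of 9 in the reverse position against 22.1%. With so few members these counts cannot be set apart from the shares of all genes.

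The other members overlapped between the lines. KMT2B was at 40.7% and 45.8% and then at 58.2% and 42.1% for Pol II, a change of 6.89 points that was 27.5 points where the summit nearest to the start was used. It was at 11.2% and 2.58% and then at 3.57% and 20.2% for H3K4me3, and at 1.79% and 6.54% and then at 1.47% and 9.42% for H3K9Ac. DPY30 kept the first place in Pol II, at 8.18% and 2% in SAP30-KO1, its H3K4me3 was at 31.1% and 16.5%, and its H3K9Ac at 9.42% and 14.4% in parental cells and 15.6% and 8.9% in SAP30-KO1. ASH2L was at 12.1% and 46.4% for Pol II, 35.4% and 18.1% for H3K4me3 and 11.5% and 17.2% for H3K9Ac in SAP30-KO1. H3K4me3 at SETD1B was at 18.9% and 1.71%. For these 4 genes the libraries of 1 line lay farther apart than the means of the lines, in every mark tested.

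The median change of the members was 6.89 points for Pol II (9 genes), 4.69 for H3K4me3 (10 genes) and 0.331 for H3K9Ac (9 genes). Over all genes tested the medians were 1.48, 2.09 and 0.31 points. The mean rank of 6 of 9 members was lower in SAP30-KO1 in Pol II, of 8 of 10 in H3K4me3 and of 5 of 9 in H3K9Ac. Over all genes tested these shares were 57.7%, 62.0% and 54.1%, so most genes moved the same way. The Pol II directions depended on the library. Without the second SAP30-KO1 library the change turned sign at 4 members: WDR5 (−3.33 points), ASH2L (−5.45), MEN1 (−10.4) and DPY30 (3.07). Without the first it turned sign at 1, KMT2B (−1.2 points).

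The number of Pol II summits in the promoter window also differed between the lines, a count made after the summit positions had been seen. KMT2A had 1 and 1 in parental cells and 2 and 3 in SAP30-KO1, KMT2B 1 and 1 against 3 and 2, and WDR5 1 and 1 against 2 and 2. These were 3 of 9 members with more summits in both SAP30-KO1 libraries, and 14.9% of all genes were like them. Fewer summits in both were found at 0 of 9 members and 2.12% of genes. For H3K4me3, 0 of 10 members had more (2.21% of genes) and 0 fewer (1.29%), and for H3K9Ac 0 of 9 had more (1.74%) and 0 fewer (2.67%). At KMT2A the second parental library had its summit 987 bp before the start and the first 39 bp after it, and the SAP30-KO1 libraries had summits on both sides (854 bp before and 30 bp after in the first). At WDR5 the best summit was 26 and 113 bp after the start in parental cells and 616 and 700 bp before it in SAP30-KO1. The latter lay beyond the start of WDR5-DT but still within the annotated bounds of WDR5. Over all genes with a Pol II promoter summit in all 4 libraries, 26.7% and 24.7% had more than 1 in the parental libraries and 44.4% and 46.7% in SAP30-KO1. In a window of 500 bp, 0 members had more summits in both SAP30-KO1 libraries. The first parental library also had KMT2A summits 1498 and 1889 bp before the start, outside the window. Counted with these, KMT2A did not have more summits in both SAP30-KO1 libraries. At KMT2B such outer summits lay 1424 bp before the start in the first parental library, and 1459 and 1415 bp before it in SAP30-KO1. In a window of 3000 bp the count was 3 members, without KMT2A.

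Genes of 3 related lists gave no called change either. Of 12 other COMPASS-family subunits, such as KMT2C and KMT2D, 11, 12 and 12 were tested for Pol II, H3K4me3 and H3K9Ac, and 0 passed an adjusted p of 0.05 in any mark. The same was true of the H3K4 demethylases (5, 5 and 4 tested) and of the proteins that bind H3K4me3 (10 tested in each mark). Their median Pol II changes were 2.11, 2.19 and 8.72 points, their median H3K4me3 changes 3.08, 5.28 and 4.94 points and their median H3K9Ac changes 0.0784, 2.64 and 0.946 points. At an unadjusted p under 0.05 there were 1 of the COMPASS-family subunits in H3K4me3, higher in the list, and 1 demethylase and 1 of the binding proteins in H3K9Ac, both lower in it.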

How the data were processed

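Chromatin of MDA-MB-231 cells was cross-linked, sonicated and immunoprecipitated, and the deposited lists hold the summit of every peak that the authors called with MACS2 2.1.0 in each library by itself. Per the labels the notes of the submitters also name FastQC 0.11.2, Bowtie2 2.3.3.1, Picard and hg19. The deposited score is the −log10 q-value, with a lowest value of 1.30. Depth, the control of each list and the options of the peak caller are not given in the sources used here, and the score depends on depth and enrichment, so it was used for ranks within a list. The precision of a rank is therefore known only from the 2 libraries of a group. The 12 input and histone H3 samples were not analysed here. Intervals were 1 bp, and 0 names carried the letter that marks several summits of 1 peak.

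Start sites were those of basic transcripts in GENCODE 44 lifted to GRCh37, for 20090 protein-coding genes. The best-ranked summit within 1000 bp of a start was used. Ranks of genes with a summit in all 4 libraries of a mark were turned into normal scores and compared with limma 3.58.1 in R 4.3.3 (Benjamini-Hochberg, 0.05). The procedure was also run on simulated data that gave every gene the same spread, so that run does not measure its power here. Positions were searched with pandas 2.3.3 and numpy 2.4.6 in Python 3.11.15. Alternatives were other windows, the canonical start, the nearest summit, log2 scores, chromosome arm centring, a replicate block and leaving out each library. Sequences were read from GRCh37, and windows touching an annotated UTR were not printed. All 10 members were named, with SAP30, genes starting within 1000 bp on the other strand, the 3 genes nearest to KMT2A in rank profile, and up to 4 called genes of each other list, of which there were 0. The members, gene lists and tests were chosen with earlier results of these data known.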

Additional observations from a re-analysis of the deposited data

How the results depend on the processing

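No member passed the adjusted threshold in any of the 3 marks under any alternative run, and the lowest adjusted p of a member was 0.197 (KMT2A, Pol II, without the first SAP30-KO1 library). Where a line is left with 1 library, the spread comes from the 2 libraries of the other line, and the single library is assumed to vary like them. The presence of promoter summits in both libraries held for 72 to 84 of 90 gene and group pairs, against 81, and 86 pairs had one in at least 1 library. The count of all genes called moved more. For H3K4me3 it was 248 with log2 scores centred on the median and 142 with quantile-normalized log2 scores, against 0, and the cause was not tested. For H3K9Ac it was 5 in a window of 500 bp, 0 in a window of 3000 bp, with the canonical start only, with the nearest summit and in the better-ranked 50% of genes, and 4 to 6 when 1 library was left out, against 1. For Pol II it was 1 in a window of 500 bp and 0 to 1 when 1 library was left out, against 0.

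The replicate numbers do not come with a shared batch in the labels. Deviations of same-numbered libraries correlated at 0.02 (Pol II), −0.02 (H3K4me3) and 0.0 (H3K9Ac), so the numbers were not taken to pair the libraries. With the replicate block 0, 0 and 43 genes were called in these marks, and 0 members. Gene-body summits numbered 57 beyond 3000 bp from a start, 43 in the better-ranked 50% of each list and, by alternatives chosen after seeing the data, 53 within canonical transcripts and 51 away from starts of other genes, against 82. The 3 members with more Pol II summits in SAP30-KO1 became 0 in a window of 500 bp. In a window of 3000 bp the count was 3, but KMT2A was no longer among them. Of 350 changes of single members under an alternative, 16 moved by more than the spread between libraries or turned sign on the log2 scale, among them H3K9Ac at MEN1 (43.8 points with the nearest summit) and Pol II at KMT2B (27.5 points). Unknown depth limits every rank, and 2 libraries a group limit every test.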

Other observations

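The genes whose promoter ranks were nearest to those of KMT2A over the means of the 9 groups were WDR43, IFRD2 and CCDC47, at Euclidean distances of 12.3, 12.9 and 13.8 points, among 5747 genes with a promoter summit in all 18 lists. WDR43, a component of the small-subunit processome, had mean ranks of 0.626% for SAP30, 9.45% for SIN3A and 5.1% for SIN3B, against 0.538%, 6.1% and 8.26% for KMT2A. The SAP30-KO1 groups were among the 9, so a like pattern in them was part of the choice.

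The ends of 4 members carried summits that lay within 1000 bp of the start of a neighbour. Beyond the end of KMT2B, SAP30 peaked 22463 and 22527 bp from its start, at 11.9% and 20.4%, near the start of IGFLR1. These were as high in the lists as the summits before the start of KMT2B (19.6% and 18.3%). Beyond CXXC1, near the start of MBD1, H3K4me3 ranked at 5.01% and 18% in parental cells and 3.81% and 26.9% in SAP30-KO1. The promoter of CXXC1 itself was at 21.6% and 37.4% in parental cells and at 23.6% and 24.4% in SAP30-KO1, which overlapped with the ranks near MBD1. Near MAP4K2, beyond MEN1, H3K9Ac was at 28.2% and 24.5% in parental cells and 33.5% and 27% in SAP30-KO1. Near HSD3B7, beyond SETD1A, it was at 33.7% and 30.5% and then at 39.4% and 23.9%, which overlapped.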
